A study of Mus musculus with 4 samples.

Results

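The 48 genes described here act in copying DNA and in supplying its nucleotides. They were taken by symbol from the 16051 genes in the deposited table, as 8 genes of origin licensing, 12 of the replicative helicase, 8 of the DNA polymerases, 11 of the sliding clamp and lagging strand, 5 of nucleotide supply and 4 of S phase entry. The cells were 3T3-L1, a mouse embryonic fibroblast line of NIH SWISS origin that forms adipocytes in culture, sequenced as mRNA. Per the study's methods they had been taken through 6 days of differentiation with an induction cocktail followed by insulin. The DMSO group, named as untreated in the labels, and the group given 100 μM risperidone, an antipsychotic drug, were each kept for 48 h and sequenced as 2 libraries. Each library held RNA pooled from 3 cultures, so every p-value below measures the spread between pools and not between single cultures. The labels also mention retina in the extraction protocol, and of 10 retina markers the 6 in the table summed to between 0.86 and 1.28 FPKM (fragments mapped, scaled for transcript length and library size) in each library.

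Preparation for replication begins in G1, when the origin recognition complex, with Cdc6 and Cdt1, loads the MCM2-7 ring onto DNA. In S phase Cdc45 and the GINS complex join MCM2-7 to form the active helicase, polymerase alpha with its primase starts each strand, and polymerases delta and epsilon extend it behind the Pcna clamp. Many of these genes are targets of the E2F factors, and most are low in cells that have left the cell cycle.

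The libraries held between 15883712 and 16374119 estimated counts, and a count of 0 leaves room for as many as 3 counts, which is 0.183 to 0.189 of each 1000000 counts. All 48 genes had a count above 0 in at least 3 libraries, and their counts together made up 891 and 890 of each 1000000 with DMSO and 942 and 930 with risperidone. Their mean levels ran from 0.155 FPKM for Cdc6 to 48.4 FPKM for Pcna, with a median of 3.96 FPKM beside 14.2 FPKM for all genes tested. Risperidone replicate 2 stood apart, since 17 kidney markers summed to 224 FPKM there against 2.05 to 3.21 FPKM in the other libraries. Of 12 adipocyte markers, 8 stayed under a mean of 1 FPKM, among them Adipoq, Cebpa, Slc2a4, Cfd, Cidec, Retn and Lep at between 0 and 0.39 FPKM, while Fabp4, Lpl and Pparg were present, so most defining markers of the labelled differentiated state were near 0. The 12 summed to 378 and 432 FPKM with DMSO and to 266 and 277 FPKM with risperidone. The 8 preadipocyte or fibroblast markers, all with a count in some library and Cd34 at 0 to 0.13 FPKM, summed to 588 and 582 FPKM and to 944 and 915 FPKM in the same order. What these markers contribute to the values below was not tested, and a change in the share of cells cannot be told apart from a change per cell in such bulk RNA.

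The replication genes did not move as a block after risperidone: Cdt1, Pola1, Pold2 and Rpa1 rose while Mcm7, Cdc45, Pola2, Fen1 and Ccne2 fell. Of the 48 genes, 42 averaged 1 FPKM or more over the 4 libraries and were tested. In the quasi-likelihood test of edgeR, with p-values adjusted by Benjamini-Hochberg over 10243 genes, 14 rose, 9 fell and 19 did not pass the threshold of 0.05. These 23 calls are 54.8% of the genes tested, and 64.3% of all genes tested were called in the same comparison, 32.1% higher and 32.2% lower, so a call alone does not set these genes apart. The median log2 fold change was 0.13 for the 42 genes and 0.00044 for all genes. On the scaled counts both risperidone libraries lay above both DMSO libraries for 19 of the 42 genes and below them for 13, where 82.9% of all genes were so separated in either direction. Only Cdt1 and Cdc45 were called with a change of at least 1 on the log2 scale, which 6.52% of all genes were. The 6 genes under 1 FPKM were Orc1, Cdc6, Mcm5, Mcm10, Gins1 and Pole. Pole2, Cdc45, Uhrf1 and Gins3 lay just above that limit at 1.03, 1.05, 1.06 and 1.07 FPKM with 1 group's mean under it, and Gins1 lay just below at 0.938 FPKM.

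The count of calls in each direction depends on how the libraries are scaled, a choice that moves the median of all genes. With total count as the only scaling, 9 of the genes were higher and 12 lower beside 2500 higher and 4092 lower among all genes. On TPM (a share of all transcripts, scaled to 1 sum per library) 4 were higher and 15 lower beside 1536 and 5292. TPM values were tested by limma on log2(TPM + 1), so the test differs there as well as the scaling. TPM moved the median of all genes to -0.22, and with that median subtracted none of the 42 genes had another sign than in the main test. Relative to the median of all genes the 42 genes stood at 0.13 in the main test and 0.14 on TPM, but at 0.075 with offsets for gene length, 0.080 with offsets for length and GC, and 0.081 without DMSO replicate 2. By role, TPM gave 1 higher and 3 lower in origin licensing, 0 and 4 in the helicase, 2 and 2 in the polymerases, 1 and 4 in the clamp and lagging strand, 0 and 1 in nucleotide supply and 0 and 1 in S phase entry. A fit with 1 library left out keeps only 1 library in that group, so no spread within that group enters its p-values. Without risperidone replicate 2, 15 rose and 10 fell, with Pole2 and Rfc4 called in addition, beside 65% of all genes called, 32.3% higher and 32.7% lower. Cdt1, Mcm2, Mcm4, Mcm7, Cdc45, Pola1, Pola2, Pold2, Rpa1, Fen1, Ccne2 and E2f1, 12 of the 23, were called with each library left out in turn. The 11 that lost the call without some library were Gins3, Gins4, Lig1, Orc3, Orc4, Pcna, Pold1, Prim2, Rfc5, Rrm1 and Tyms. Counts of 13 genes may hold reads of a gene in the deposited table on the other strand whose exons overlap. Strand in counting is not stated in the sources used here. Called genes among the 13 are Mcm7, Cdc45, Rfc5, Fen1 and Ccne2, which fell, and Orc4 and Lig1, which rose. Orc4, Tyms and Ccne2 have estimated counts that are not whole.

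**Figure D1:**
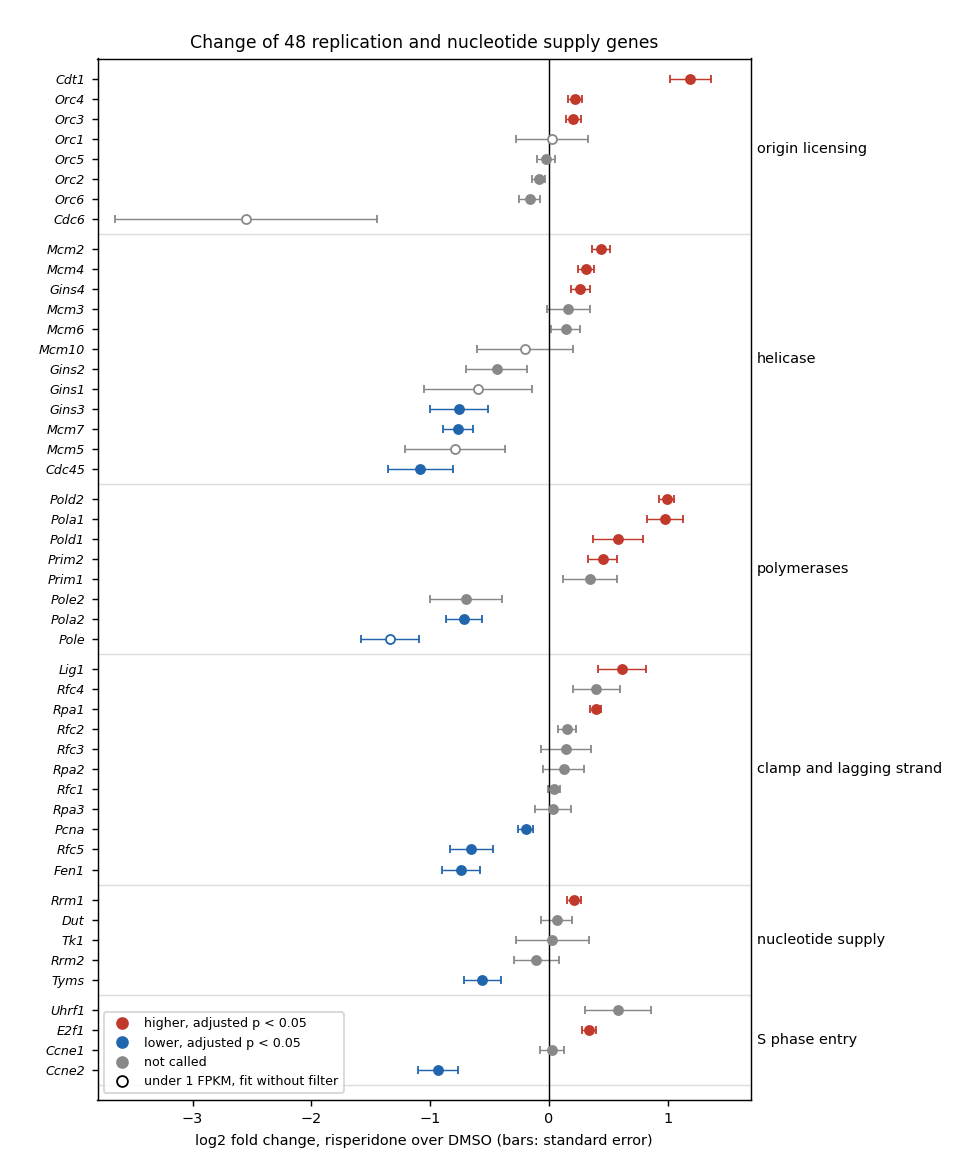
Log2 fold change of risperidone over DMSO for each of the 48 genes by role (horizontal axis log2 units, error bars ± 1 SE from the edgeR fit, 2 libraries per group). Rises and falls stand side by side in most roles, from Cdt1 at 1.19 to Cdc45 at -1.08 among the genes tested.

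Among the loading factors, Cdt1 rose while the subunits of the origin recognition complex changed little. Calls in origin licensing were 3 higher and 0 lower of 6 tested, or 50% beside 64.3% of all genes. Cdt1, which brings MCM2-7 to the origin, had 105 and 75 counts with DMSO and 182 and 203 with risperidone. Both risperidone libraries lay above both DMSO libraries. Its level went from 2.71 ± 0.587 to 5.79 ± 0.502 FPKM (SD, n = 2 libraries each), a rise of 1.19 ± 0.171 (SE) on the log2 scale or 2.28-fold, with an adjusted p of 0.000113 from edgeR.

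Cdc6, the ATPase that works with Cdt1 in loading, was scarce, and reached the floor of 3 counts with risperidone. Its counts were 12 and 8 with DMSO and 3 and 0 with risperidone, and a count of 0 there allows up to 0.188 of each 1000000 counts. The ratio of the summed counts, scaled by library totals, was 0.150 with an exact 95% interval from 0.0286 to 0.506 that covers counting error only. With no filter on low values, edgeR gave it an adjusted p of 0.136.

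Orc3 and Orc4, subunits of the origin recognition complex, rose by 0.21 ± 0.0662 and 0.22 ± 0.0573 on the log2 scale. Orc3 had 1147 and 1015 counts with DMSO and 1160 and 1177 with risperidone. Its counts did not overlap, while its levels in FPKM did, at 32.10 and 28.78 against 31.42 and 32.10. Exons of Orc4 overlap Acvr2a and Mbd5 on the other strand over 446 and 136 of 7458 bases. Orc4 was separate in FPKM, at 22.86 and 22.02 against 26.06 and 24.74, and its adjusted p in edgeR was 0.0061 beside 0.0178 for Orc3. Without DMSO replicate 2 neither passed, at adjusted p of 0.212 for Orc3 and 0.0776 for Orc4. The other subunits gave log2 fold changes of -0.09 for Orc2, -0.02 for Orc5 and -0.16 for Orc6, none past the threshold in the main test. With library size only, Orc2 and Orc6 passed as lower, at adjusted p of 0.0183 and 0.0298 from edgeR, as they did in limma on FPKM. On TPM, where the median of all genes was -0.22, Orc2, Orc5 and Orc6 passed as lower, at -0.31, -0.26 and -0.40. Orc1 had 36 and 29 counts with DMSO and 37 and 25 with risperidone, which overlap. Orc1, at 0.538 FPKM, was the only subunit of the 6 under 1 FPKM.

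The genes of the helicase split, with Mcm2, Mcm4 and Gins4 higher and Mcm7, Cdc45 and Gins3 lower. These 6 are 66.7% of the 9 tested, beside 64.3% of all genes, 32.1% higher and 32.2% lower, so the split is near that of all genes. Windows of 250 bases before the start are shown for helicase genes with different outcomes: Mcm2 rose, Mcm6 did not pass, and Cdc45 and Gins3 fell. They come from the RefSeq promoter table on GRCm38.p6, are written 5′ to 3′ on the gene's strand, and lie outside the span of their own gene. The positions are chr6:88898781-88899030, minus strand for Mcm2, chr1:128359706-128359955, minus strand for Mcm6, chr16:18811973-18812222, minus strand for Cdc45 and chr8:95633309-95633558, plus strand for Gins3. Capitals mark the E2F letters TTTCCCGC, TTTGGCGC, TTTCGCGC or TTTGCCGC and the letters TTTGAA, the core of the cell cycle homology region, each on either strand.
Mcm2: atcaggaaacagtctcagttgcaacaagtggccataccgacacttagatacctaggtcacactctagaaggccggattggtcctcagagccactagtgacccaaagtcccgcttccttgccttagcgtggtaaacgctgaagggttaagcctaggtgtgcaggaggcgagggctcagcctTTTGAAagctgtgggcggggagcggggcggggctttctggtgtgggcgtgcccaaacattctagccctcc
Mcm6: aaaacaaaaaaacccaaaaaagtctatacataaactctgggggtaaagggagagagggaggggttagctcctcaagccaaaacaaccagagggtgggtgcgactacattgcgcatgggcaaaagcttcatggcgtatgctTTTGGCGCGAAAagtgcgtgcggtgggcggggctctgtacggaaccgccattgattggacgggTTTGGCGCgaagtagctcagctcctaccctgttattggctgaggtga
Cdc45: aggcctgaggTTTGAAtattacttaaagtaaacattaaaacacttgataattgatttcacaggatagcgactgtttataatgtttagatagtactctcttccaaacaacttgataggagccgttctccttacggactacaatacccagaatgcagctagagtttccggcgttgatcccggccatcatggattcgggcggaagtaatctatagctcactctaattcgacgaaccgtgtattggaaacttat
Gins3: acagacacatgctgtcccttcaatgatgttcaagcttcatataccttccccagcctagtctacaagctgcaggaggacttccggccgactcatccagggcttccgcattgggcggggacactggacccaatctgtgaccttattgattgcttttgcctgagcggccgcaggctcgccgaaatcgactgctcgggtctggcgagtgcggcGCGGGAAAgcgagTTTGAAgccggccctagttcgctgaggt
The E2F letters begin 110, 106 and 47 bases before the start in Mcm6, where the first pair overlap on opposite strands, and 41 bases before it in Gins3. TTTGAA begins 70 bases before the start in Mcm2, 240 in Cdc45 and 28 in Gins3. Windows of the helicase genes Mcm3 and Mcm10 also lie outside their genes, hold neither kind of letters and are not shown. Windows were found for 40 of the 48 genes, and E2F letters were in 9 of them, or 22.5%, beside 1.92% of all 27025 promoters and 3.76% of those of 8329 tested genes. TTTGAA was in 4 of the 40, or 10%, beside 16.3% of all promoters and 10.3% of those of tested genes. The CCAAT letters on either strand were in 23, or 57.5%, beside 34.5% and 37.7% in the same order. TTTGAA was in 1 of 11 genes that rose (Mcm2) and 3 of 8 that fell (Cdc45, Gins3 and Fen1). It was in 0 of 17 not called and 0 of 4 under 1 FPKM. By outcome, E2F letters were in 2 of 11 genes that rose (Orc3 and Pola1), 2 of 8 that fell (Mcm7 and Gins3), 2 of 17 not called (Mcm6 and Rfc3) and 3 of 4 under 1 FPKM (Orc1, Cdc6 and Mcm5). Of the 40 windows, 16 lie at least partly inside the span of their own gene, and 6 of the 9 with E2F letters (Orc1, Orc3, Cdc6, Mcm5, Mcm7 and Pola1) are among these 16. A match describes letters in the window and says nothing of binding.

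Mcm7, a subunit of the MCM2-7 ring, had 265 and 258 counts with DMSO and 155 and 133 with risperidone. Its level went from 7.07 ± 0 to 3.85 ± 0.346 FPKM, and it fell by 0.77 ± 0.126 on the log2 scale with an adjusted p of 0.000305 from edgeR. The groups were well apart, as they were for Mcm2 in the opposite direction. Mcm2 had 441 and 371 counts with DMSO and 527 and 506 with risperidone, and rose by 0.44 ± 0.0758 with an adjusted p of 0.000409. Mcm4 had 396 and 398 against 478 and 446 counts and rose by 0.31 ± 0.0678, with an adjusted p of 0.00197. On TPM neither Mcm2 nor Mcm4 passed, at 0.20 and 0.069 with adjusted p of 0.0859 and 0.480 from limma. With the TPM median of all genes subtracted they gave 0.42 and 0.29. Mcm3 and Mcm6 gave 0.17 ± 0.183 and 0.14 ± 0.119 and did not pass, with ranges of 0.014 to 0.30 and 0.062 to 0.23 when 1 library was left out, lowest without risperidone replicate 1 for Mcm3 and without DMSO replicate 2 for Mcm6. Mcm5, under 1 FPKM, had 46 and 28 counts against 14 and 26, and Mcm10, a factor of helicase activation, had 15 and 23 against 14 and 17. Neither passed with no filter on low values. Exons of Mcm7 overlap those of Ap4m1 and Cops6 on the other strand over 321 and 64 of 4426 exonic bases. Ap4m1 and Cops6 averaged 9.86 and 89.6 FPKM beside 5.46 FPKM for Mcm7.

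Cdc45, which turns MCM2-7 into the active helicase, had 44 and 49 counts with DMSO and 23 and 18 with risperidone. The groups did not overlap, and it fell by 1.08 ± 0.273 on the log2 scale, from a level of 1.48 ± 0.0919 FPKM to 0.625 ± 0.0919 FPKM (adjusted p = 0.00494, edgeR). With neither a filter on low values nor risperidone replicate 2, Cdc45 gave -0.90 with an adjusted p of 0.0507, which did not pass. Its partner complex GINS split between subunits. Gins3 had 54 and 47 counts with DMSO and 28 in each risperidone library and fell by 0.75 ± 0.244, with an adjusted p of 0.0189. Gins4 had 394 and 412 against 490 and 418 counts and rose by 0.27 ± 0.0829, with an adjusted p of 0.0158. Its FPKM values of 21.07 in DMSO replicate 2 and 21.14 in risperidone replicate 2 nearly met. Without DMSO replicate 1 the adjusted p was 0.123 for Gins3 and 0.105 for Gins4, and without risperidone replicate 1 it was 0.166 for Gins4. Gins1, with 19 and 15 counts against 8 and 13, and Gins2, with 44 and 63 against 38 and 36, were lower in both risperidone libraries but did not pass. For Gins2, 2758 of 4097 exonic bases overlap Gse1 on the other strand. For Cdc45, 209 of 3506 overlap Ufd1, which averaged 28.6 FPKM beside 1.05 FPKM for Cdc45.

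**Figure D2:**
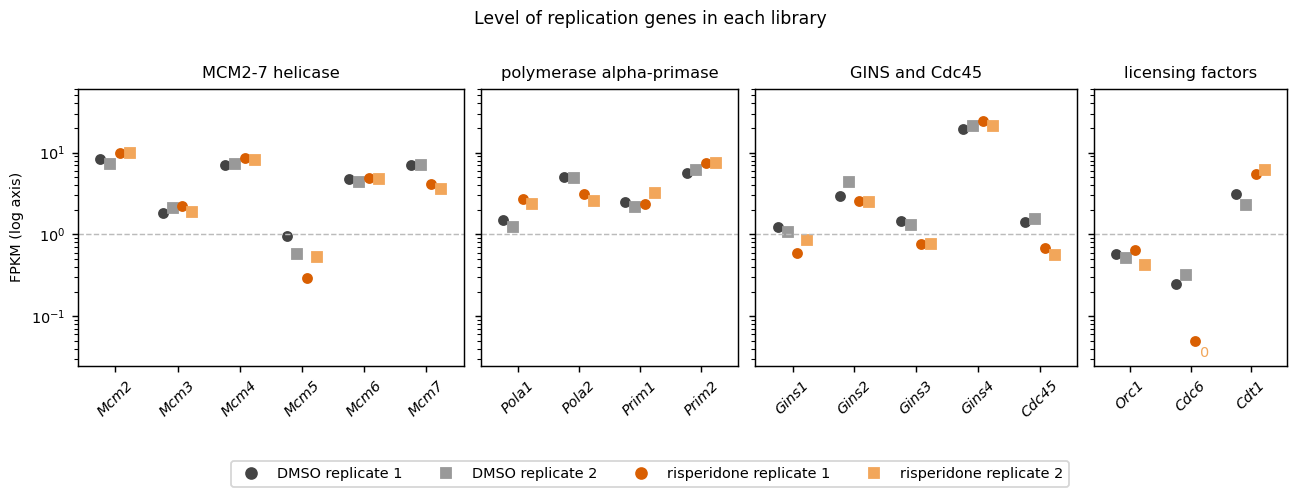
FPKM in each of the 4 libraries (log axis, 1 point per library, dashed line at 1 FPKM) for genes of MCM2-7, polymerase alpha-primase, GINS with Cdc45, and licensing, with a value of 0 written as a digit. Cdt1 and Pola1 are higher in both risperidone libraries, and Mcm7, Cdc45, Gins3 and Pola2 are lower in both.

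Polymerase genes gave 4 rises and 1 fall among the 7 tested, or 71.4% called beside 64.3% of all genes. Pold2, the second subunit of polymerase delta, had 490 and 475 counts with DMSO and 916 and 881 with risperidone. Replicates lay close together and the groups far apart. Its level went from 20.2 ± 0.0566 to 37.5 ± 0.587 FPKM, a rise of 0.99 ± 0.0597 on the log2 scale or 1.99-fold, with an adjusted p of 2.29e-07 from edgeR. Pold1, the catalytic subunit, had 86 and 137 counts against 170 and 144 and rose by 0.58 ± 0.210, with an adjusted p of 0.0304. DMSO replicate 2 was close to the risperidone libraries, and without DMSO replicate 1 the log2 fold change of Pold1 was 0.27 with an adjusted p of 0.314. It also lost the call without risperidone replicate 1, at an adjusted p of 0.0897.

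Polymerase alpha divided between its subunits. Pola1, the catalytic subunit, had 127 and 103 counts with DMSO and 228 and 197 with risperidone, and Pola2, the accessory subunit, had 191 and 177 against 116 and 94. For both genes the groups were separate, in opposite directions. Pola1 rose by 0.98 ± 0.149 on the log2 scale, from 1.37 ± 0.170 to 2.56 ± 0.247 FPKM (adjusted p = 0.000174, edgeR). Pola2 fell by 0.71 ± 0.151, from 4.97 ± 0.156 to 2.85 ± 0.389 FPKM (adjusted p = 0.00168). Of the primase, which lays down the RNA primer, Prim2 rose by 0.45 ± 0.122 with an adjusted p of 0.00717, from 169 and 181 to 226 and 223 counts. Without DMSO replicate 1 its adjusted p was 0.0824. Prim1 gave 0.35 ± 0.229 and did not pass, with 57 and 48 counts against 53 and 72, which overlap before scaling. Its value was 0.55 without risperidone replicate 1 and 0.10 without risperidone replicate 2.

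Pole, the catalytic subunit of polymerase epsilon, had 59 and 52 counts with DMSO and 18 and 23 with risperidone, at 0.340 FPKM on average. It was lower in both risperidone libraries, and with no filter on low values it fell by 1.34 ± 0.244 on the log2 scale, with an adjusted p of 0.00948 over 16021 genes, of which 37.6% were called, 18.4% higher and 19.3% lower. Without risperidone replicate 2 it gave -1.50 with an adjusted p of 0.0105. Pole2 had 36 and 30 counts against 16 and 22 and gave -0.70 ± 0.306 with an adjusted p of 0.0657, which did not pass. Without risperidone replicate 2 it gave -0.95 and passed, at an adjusted p of 0.0483. The small subunits of polymerase epsilon, Pole3 and Pole4, which are not among the 48 genes, averaged 31.3 and 43.3 FPKM. Pole3 gave 0.29 ± 0.119 with an adjusted p of 0.0525, and Pole4 fell by 0.19 ± 0.0656 with an adjusted p of 0.0241, or 0.112 without DMSO replicate 2. Without risperidone replicate 2, Pole3 passed, at an adjusted p of 0.0301.

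Calls in the clamp and lagging strand were 2 higher and 3 lower of 11 tested, or 45.5% beside 64.3% of all genes. Pcna, the sliding clamp and the gene with the highest level of the 48, had 963 and 973 counts with DMSO and 784 and 801 with risperidone. Both risperidone libraries were lower, at 43.5 ± 1.04 against 53.3 ± 1.46 FPKM. The fall of 0.19 ± 0.0645 on the log2 scale had an adjusted p of 0.021 from edgeR, and of 0.0737 without DMSO replicate 2. Of the clamp loader, Rfc5 alone of 5 subunits passed, with 117 and 141 counts against 82 and 72. It fell by 0.65 ± 0.178 with an adjusted p of 0.00771, or 0.105 without DMSO replicate 2. Over 499 of its 4669 exonic bases it overlaps Wsb2 on the other strand, which averaged 63.7 FPKM. Rfc1, Rfc2, Rfc3 and Rfc4 gave 0.04, 0.16, 0.14 and 0.40 on the log2 scale. None of those 4 passed in the main test. Without risperidone replicate 2, Rfc4 gave 0.50. With offsets for gene length Rfc1 passed at 0.14, with an adjusted p of 0.0348 from edgeR, or 0.0232 with length and GC. On TPM it passed the other way, at -0.19 with an adjusted p of 0.0224 from limma, where the median of all genes was -0.22. Rfc4 overlaps Eif4a2 on the other strand over 194 of 1533 exonic bases, and Eif4a2 averaged 155 FPKM.

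Rpa1, the large subunit of the protein that coats single-stranded DNA, had 1586 and 1554 counts with DMSO and 1977 and 1892 with risperidone. The groups were separate, at 33.5 ± 0.226 and 41.2 ± 0.820 FPKM, and it rose by 0.40 ± 0.0480 on the log2 scale with an adjusted p of 3.31e-05 from edgeR. Its partners Rpa2 and Rpa3 gave 0.12 ± 0.175 and 0.03 ± 0.151, and their libraries overlapped. Fen1, the nuclease that trims Okazaki fragments, fell by 0.74 ± 0.159 with an adjusted p of 0.00181, from 135 and 140 counts to 79 and 75. Lig1, the ligase that seals them, rose by 0.61 ± 0.200 with an adjusted p of 0.0197, from 60 and 73 counts to 106 and 85. For both genes the groups were separate. The call for Lig1 was lost without DMSO replicate 1, at an adjusted p of 0.164, and without risperidone replicate 1, at 0.0954. Of the 2422 exonic bases of Fen1, 1909 overlap the predicted gene Gm10143 and 130 overlap Tmem258, both on the other strand. Tmem258 averaged 79.2 FPKM beside 3.18 FPKM for Fen1. For Lig1, 247 of 4268 overlap Zswim9, at 1.58 FPKM.

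Of 5 enzymes of deoxynucleotide supply, 1 rose and 1 fell, or 40% called beside 64.3% of all genes. Rrm1, the large subunit of ribonucleotide reductase, had 579 and 593 counts with DMSO and 643 and 628 with risperidone, and rose by 0.21 ± 0.0580 on the log2 scale with an adjusted p of 0.00812 from edgeR. On TPM the same gene gave -0.03, as Orc3 gave -0.08, and no other of the 23 genes called changed sign there. With the TPM median of all genes subtracted, they stood at 0.20 and 0.15, on the same side as in the main test. Without DMSO replicate 1, Rrm1 had an adjusted p of 0.0709. Tyms, which makes thymidylate, had 148 and 156 counts against 105 and 88.0. It fell by 0.56 ± 0.157 with an adjusted p of 0.00876, or 0.0696 without DMSO replicate 2. Rrm2, the small reductase subunit, gave -0.11 ± 0.191, Tk1, the thymidine kinase, 0.03 ± 0.307, and Dut, which removes dUTP, 0.06 ± 0.128. The libraries of these 3 genes overlapped.

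Calls in S phase entry were 1 higher and 1 lower of 4 tested, or 50% beside 64.3% of all genes. Ccne2, a cyclin that activates Cdk2 at S phase entry, had 140 and 147 counts with DMSO and 64.4 and 77.2 with risperidone. The groups were far apart, and it fell by 0.93 ± 0.170 on the log2 scale, from 3.35 ± 0.226 to 1.65 ± 0.247 FPKM (adjusted p = 0.000625, edgeR). The other E cyclin, Ccne1, had 274 and 255 counts against 256 and 250 and gave 0.03 ± 0.101. E2f1, a transcription factor of the E2F family, had 547 and 555 counts against 647 and 657 and rose by 0.34 ± 0.0579, with an adjusted p of 0.000412. On TPM, E2f1 gave 0.097 and did not pass, at an adjusted p of 0.257 from limma. With the TPM median of all genes subtracted it gave 0.32. Uhrf1, which reads hemimethylated DNA behind the fork, had 38 and 58 counts against 54 and 81, which overlap. It gave 0.58 ± 0.276 and did not pass, and its value rested on single libraries. It was 0.94 without DMSO replicate 2 and 0.85 without risperidone replicate 1, which passed at adjusted p of 0.0215 and 0.013, and 0.29 without DMSO replicate 1 and 0.26 without risperidone replicate 2, which did not pass at 0.454 and 0.446. Of 3495 exonic bases of Ccne2, 609 overlap Ints8 on the other strand.

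Since several complexes held both a rise and a fall, the FPKM of the subunit with the highest log2 fold change was divided by that of the lowest within each library. The pairs were chosen by these values, so the ratios are a description with no test. For Pola1 over Pola2 the ratio was 0.293 and 0.257 with DMSO and 0.875 and 0.926 with risperidone. For Mcm2 over Mcm7 it was 1.18 and 1.02 against 2.44 and 2.71. For Gins4 over Gins3 it was 13.5 and 16.2 against 32.2 and 27.5. In all 3 complexes the ratio was higher in both risperidone libraries than in either DMSO library. The ratio of Ccne1 to Ccne2 was 2.88 and 2.51 against 5.87 and 4.70, and that of Rfc4 to Rfc5 was 0.908 and 0.617 against 1.56 and 1.53. Pold2 over Pold1 overlapped, at 12.6 and 7.68 against 12.0 and 13.6. A ratio within a library does not depend on how libraries are scaled, and the order of the groups in it is fixed in part by the choice of pair.

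**Figure D3:**
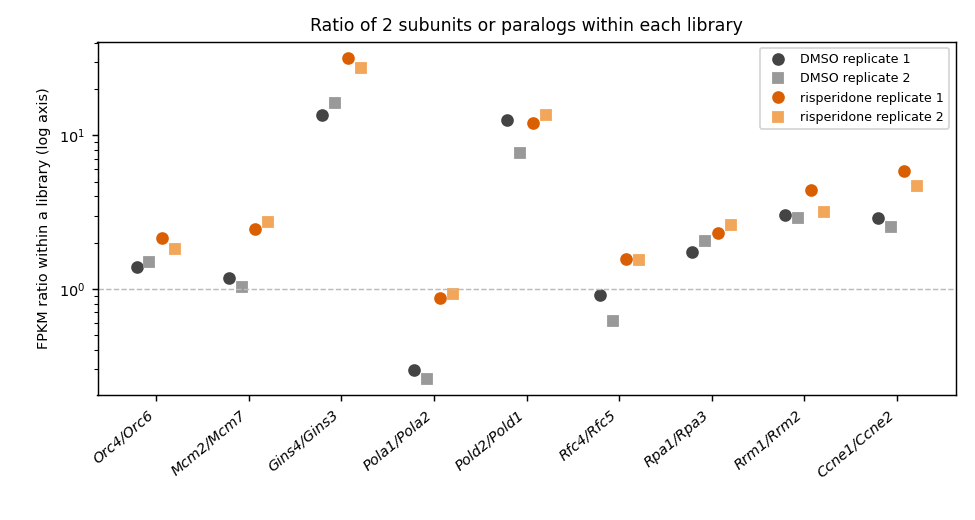
Ratio of the FPKM of 2 subunits within each library for 9 complexes or paralog pairs (log axis, 1 point per library, dashed line at a ratio of 1). The largest separation is in Pola1 over Pola2, at 0.293 and 0.257 with DMSO against 0.875 and 0.926 with risperidone, and Pold2 over Pold1 overlaps.

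Of 33 further fork genes, 23 were tested, 9 rose and 6 fell, with a median log2 fold change of 0.21. Gmnn, the inhibitor of Cdt1, had 23 and 40 counts with DMSO and 99 and 73 with risperidone. It rose by 1.54 ± 0.281, with an adjusted p of 0.000639 from edgeR, so both Cdt1 and its inhibitor were higher in both risperidone libraries. Pold4, the small subunit of polymerase delta, rose by 1.01 ± 0.0699, Top2a, a topoisomerase, rose by 0.79 ± 0.133, and Chtf8, of an alternative clamp loader, fell by 0.81 ± 0.0513. Of 15 genes of chromatin copying, 14 were tested, 4 rose and 5 fell, with a median of -0.07. Hells, a chromatin remodeller, rose by 1.0 ± 0.132, while the histone chaperones Nasp and Asf1b fell by 0.69 ± 0.0963 and 0.67 ± 0.191 and Slbp, which binds histone mRNA, fell by 0.63 ± 0.0712. Without DMSO replicate 1, Asf1b did not pass, at an adjusted p of 0.0947. The shares called, 65.2% and 64.3%, are near the 64.3% of all genes. On TPM, where the median of all genes was -0.22, the fork list gave 5 higher and 10 lower with a median of -0.02. Chromatin copying gave 2 and 8 there, with a median of -0.30.

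Of 12 other genes of the E2F and Rb family, 9 were tested, 4 rose and 2 fell, or 66.7% called beside 64.3% of all genes, while TPM gave 1 higher and 2 lower. Rbl1, a pocket protein that restrains E2F, had 210 and 191 counts with DMSO and 375 and 297 with risperidone and rose by 0.84 ± 0.124. Rb1, E2f3 and E2f6 rose by 0.19, 0.20 and 0.34 on the log2 scale, and on TPM Rb1 and E2f3 gave -0.05 and -0.03, which are 0.18 and 0.19 above the median of all genes there. Tfdp1 and Tfdp2, the DNA-binding partners of E2F, fell by 0.45 ± 0.0592 and 0.34 ± 0.0641. E2f4, E2f5 and Rbl2 did not pass, and E2f2, E2f7 and E2f8 were under 1 FPKM. Of 38 further genes of nucleotide supply, 37 were tested, 22 rose and 3 fell, or 67.6% called, with a median of 0.27 beside 0.00044 for all genes. On TPM the same list gave 15 higher and 12 lower beside 1536 and 5292 among all genes. Among them Samhd1, which degrades deoxynucleotides, rose by 1.13 ± 0.0595 from 823 and 777 to 1661 and 1621 counts, and Dctpp1, Ctps and Aprt rose by 0.73, 0.70 and 0.69. Of 15 kinases and regulators of G1/S and S phase, 13 were tested, 2 rose and 2 fell, or 30.8% called, while TPM gave 0 higher and 8 lower: Ddb1 and Cdc25a rose by 0.36 and 0.23, and Fbxw7 and Cdk7 fell by 0.69 and 0.21 on the log2 scale. On TPM, Cdc25a gave -0.0059, which is 0.22 above the median of all genes there. Leaving out 1 library ended the calls of Cdc25a, at adjusted p of 0.172 without DMSO replicate 1, 0.161 without DMSO replicate 2 and 0.0584 without risperidone replicate 1, and of Cdk7, at 0.142 without DMSO replicate 2 and 0.140 without risperidone replicate 2. With offsets for gene length Cdk7 gave -0.075 with an adjusted p of 0.441, and with length and GC -0.053 with an adjusted p of 0.580. The call of E2f3 ended at 0.0738 without DMSO replicate 2 and 0.0739 without risperidone replicate 2, and that of Rb1 at 0.132 and 0.141 without the same libraries. E2f6 lost its call without DMSO replicate 1, DMSO replicate 2 or risperidone replicate 1, at 0.0548, 0.188 and 0.174.

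**Figure D4:**
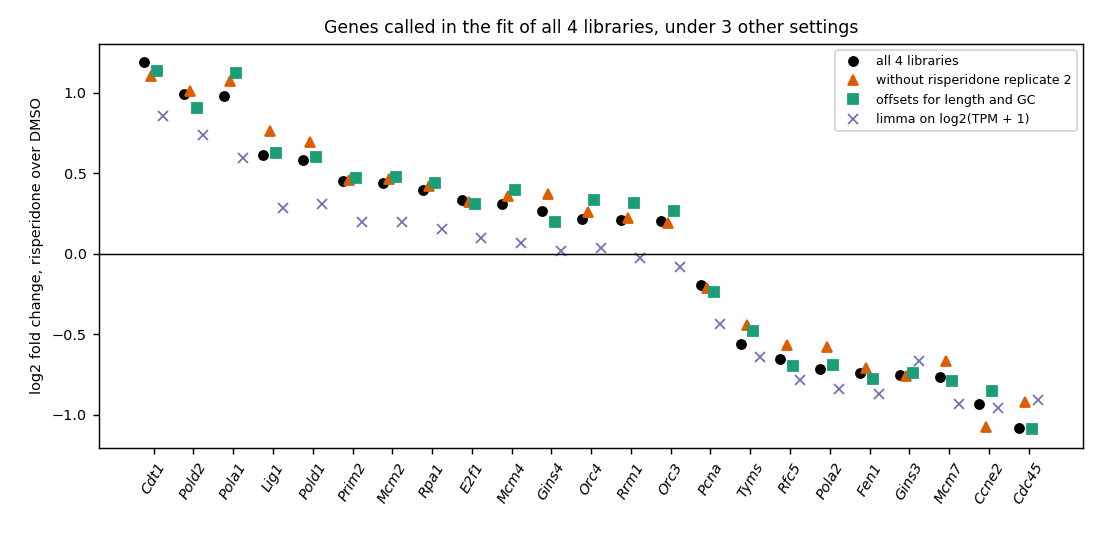
Log2 fold change of risperidone over DMSO for the 23 genes called, in the edgeR fit of all 4 libraries, without risperidone replicate 2, with offsets for length and GC of the genes, and in limma on log2(TPM + 1). The TPM points lie below those of the edgeR fit for all but Gins3 and Cdc45, and of the 23 only Orc3 and Rrm1 lie on the other side of 0 there, at -0.08 and -0.03, both above the TPM median of all genes at -0.22.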

How the data were processed

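The data were mRNA sequencing of 4 pools of 3T3-L1 cells described as differentiated, 2 with DMSO and 2 with 100 μM risperidone for 48 h. The submitters' processing notes name Bowtie2, RSEM, DESeq2 and the build GRCm38.p6, and give no versions of the tools. The estimated counts (expected counts) were deposited by the authors without further normalization, and 91.2% to 91.7% of the values of a library are whole. The FPKM and TPM values were also deposited by the authors, scaled for gene length and library. The 6 columns of the authors' averages over replicates were left out. Groups came from the sample labels.

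Counts were rounded and the 10243 genes averaging 1 FPKM or more were tested with edgeR 4.0.16 in R 4.3.3, using TMM factors of 0.963 to 1.03, the quasi-likelihood F-test, two-sided, and Benjamini-Hochberg adjustment over all genes tested at a threshold of 0.05. The biological coefficient of variation was 0.0468. The SE of a log2 fold change is its size over the root of its F statistic. Genes under 1 FPKM were read from a fit with no filter, over 16021 genes. The 48 genes, the roles and the further lists were chosen with earlier results of these data known. All 48 genes are named, with up to 4 called genes of each further list by absolute log2 fold change, and the whole E2F and Rb family. Pole3, Pole4 and the cell type markers were picked for naming with their values in view.

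Alternatives were RLE size factors, library size only, no filter, a minimum mean of 5 FPKM, DESeq2 1.42.0, limma 3.58.1 on log2(FPKM + 1), log2(FPKM + 0.1) and log2(TPM + 1), offsets for gene length, the replicate block and each library left out. Offsets with GC content, for 10151 genes, the crossed block, and the fit with neither a filter nor risperidone replicate 2 were chosen after seeing the data. The scripts were tested on simulated data. Promoter windows and coordinates are from RefSeq on GRCm38.p6. Tables and figures used Python 3.11.15, pandas 2.3.3 and matplotlib 3.10.9.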

Additional observations from a re-analysis of the deposited data

How the results depend on the processing

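Of the 23 replication and nucleotide supply genes called, Cdt1, Mcm7, Pola1, Pola2, Pold2, Rpa1, Fen1 and Ccne2 were called in the same direction under each of the alternatives that tested them, and Cdc45 under all but the fit with neither a filter nor risperidone replicate 2, where its adjusted p was 0.0507 in edgeR. The count of 14 higher was 9 with library size only, 9 and 9 with limma on log2(FPKM + 1) and log2(FPKM + 0.1), and 4 on TPM. The rises that did not pass on TPM were Orc3, Orc4, Mcm2, Mcm4, Gins4, Prim2, Pold1, Lig1, Rrm1 and E2f1. The count of 9 lower was 15 on TPM. Among the 20 genes averaging 5 FPKM or more, where fewer genes were tested, 10 were higher and 2 lower, beside 2669 and 2732 of all genes. Those 2 were Mcm7 and Pcna, and the other genes called lower in the main test averaged under 5 FPKM. Leaving out 1 library at a time gave 9 to 15 higher, the lowest without DMSO replicate 1, and 6 to 10 lower, the lowest without DMSO replicate 2, where all genes gave 2666 and 2725 calls and 2688 and 2726, in place of 3287 and 3303. The median log2 fold change of 0.13 was 0.039 with library size only, 0.036 with no filter, where all 48 genes enter and the same 42 gave 0.13, 0.033 and 0.046 with limma on FPKM at pseudocounts of 1 and 0.1, and -0.087 on TPM, and 0.08 to 0.15 with 1 library left out. Among all genes, TPM gave 1536 higher and 5292 lower. DESeq2 called 11 higher and 7 lower beside 2639 and 2653 of all genes, losing Gins3, Gins4, Pcna, Lig1 and Rrm1, and no filter gave 10 and 10 with Pole among the lower. Log2 fold changes that changed sign with library size only were -0.052 for Rfc1, -0.060 for Rpa3, -0.062 for Tk1, -0.029 for Dut, -0.063 for Ccne1 and -0.012 for Rbl2. With limma on log2(FPKM + 1) they were -0.052 for Rfc1, -0.068 for Rpa3, -0.029 for Dut, -0.060 for Ccne1 and -0.013 for Rbl2, and with log2(FPKM + 0.1) -0.054 for Rfc1, -0.072 for Rpa3, -0.033 for Dut, -0.066 for Ccne1 and -0.014 for Rbl2. On TPM they were -0.079 for Orc3, -0.063 for Mcm3, -0.075 for Mcm6, -0.19 for Rfc1, -0.085 for Rfc2, -0.090 for Rfc3, -0.10 for Rpa2, -0.21 for Rpa3, -0.026 for Rrm1, -0.065 for Tk1, -0.16 for Dut, -0.20 for Ccne1, -0.0059 for Cdc25a, -0.032 for E2f3, -0.14 for E2f4, -0.11 for E2f5, -0.048 for Rb1 and -0.15 for Rbl2. With offsets for gene length they were -0.12 for Rpa3 and -0.042 for Tk1, and with gene length and GC content 0.0018 for Orc2, 0.016 for Orc5, -0.066 for Rpa3, -0.056 for Tk1 and -0.012 for Ccne1, alternatives of which the GC offset was chosen after seeing the data. Of these, Orc3, Rrm1, Cdc25a, E2f3 and Rb1 were called in the main test. With 1 library left out, the uncalled genes that changed sign ran over -0.051 to 0.0043 for Orc5, -0.0012 to 0.28 for Rfc3, -0.0019 to 0.24 for Rpa2, -0.075 to 0.14 for Rpa3, -0.35 to 0.11 for Rrm2, -0.11 to 0.16 for Tk1, -0.033 to 0.16 for Dut and -0.0019 to 0.063 for Ccne1. With the median of all genes subtracted within each fit, none of the sign changes with library size only, limma on FPKM or TPM remained. The median of all genes lay below 0 in each of those fits, though in the limma fits genes moved by unlike amounts. The sign changes of Rpa3 and Tk1 with either offset and of Ccne1 with GC content did remain, and for these and those with a library left out the cause was not tested. The replicate numbers share only a number, since the labels tie no cultures to them, and same-numbered libraries deviated with a correlation of -0.105. With the replicate block 15 rose and 9 fell among these genes, Uhrf1 being added at an adjusted p of 0.0193 in edgeR, and 3292 and 3321 among all genes. The crossed replicate block gave 15 and 9, and 3474 and 3519. At these depths a gene such as Cdc6, with 0 to 12 counts, gives a ratio known only within the interval printed for it, and groups of 2 libraries allow no exact permutation p under 0.333 for a single value.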

Other observations

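Markers that define the culture gave the following values in the same libraries, and their part in the values of the replication genes was not tested. Fabp4, the fatty acid binding protein of adipocytes, was at 130 and 169 FPKM with DMSO and at 59.5 and 71.2 FPKM with risperidone, and fell by 1.09 ± 0.120 on the log2 scale. Lpl, lipoprotein lipase, was at 234 and 250 against 192 and 191 FPKM and fell by 0.24 ± 0.0508. Pparg, the adipocyte transcription factor, gave 0.12 ± 0.0795 and did not pass, nor did Cd36, a fatty acid transporter, at 0.27 ± 0.237, the last of the 4 of 12 adipocyte markers that were tested. Of 8 preadipocyte or fibroblast markers 7 were tested, 4 rose and 2 fell, or 85.7% called beside 64.3% of all genes. Without risperidone replicate 2, 3 rose and 2 fell, and the median log2 fold change was 0.53 in place of 0.99. Dlk1, a preadipocyte marker, was at 30.4 and 32.9 against 81.7 and 83.3 FPKM and rose by 1.52 ± 0.0544. Col1a1 rose by 0.99 ± 0.0523, while Col3a1, another fibrillar collagen, fell by 0.96 ± 0.0532, both by edgeR.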
